A study of Homo sapiens with 12 samples.

Results

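The 5 genes described here encode the subunits of the transcription factor NF-kB: RELA, NFKB1, REL, NFKB2 and RELB. They were taken by symbol from a table of 56634 gene symbols, all 5 were found, and all 5 passed the filter on low counts among the 13084 genes tested. The cells were HCT116, an established human colorectal carcinoma line, and RNA was sequenced from 12 libraries in 4 groups of 3 biological replicates. Control cells were kept in 0.1% DMSO over 3 hours. Senexin B cells had the inhibitor at 1 µM over the same 3 hours. TNF cells had 0.1% DMSO for 1 hour and then TNF-alpha (TNF) at 10 ng/mL for 2 hours. TNF plus Senexin B cells had 1 µM Senexin B in place of the DMSO. No DMSO percentage is given for the cells with Senexin B, so whether they had the same vehicle is not known. Senexin B inhibits CDK8 and CDK19, the kinases of the Mediator complex that bridges transcription factors and RNA polymerase II. The labels name no day or passage for the replicates, and every p-value measures no more than how these 12 libraries vary.

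NF-kB is a family of dimers built from these subunits, all of which share the Rel homology domain that binds DNA and pairs the partners. In resting cells most dimers are held in the cytoplasm by IkB proteins. TNF activates the IkB kinase complex, the IkB proteins are degraded, and dimers such as RELA with p50 enter the nucleus. RELA, REL and RELB carry a transactivation domain. NFKB1 and NFKB2 encode the precursors p105 and p100, whose ankyrin repeats act like an IkB and which are processed to p50 and p52. RELA, NFKB1 and REL belong to the canonical arm, and NFKB2 with RELB to the slower non-canonical arm that runs through the kinase NIK. Several of these genes are themselves known NF-kB targets.

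The start regions of the genes are shown because all 5 genes rose with TNF, from 1.25-fold (RELA) to 8.06-fold (RELB). RefSeq (GRCh38.p14) windows from 250 bases before to 50 bases after a listed start were found for 4 of the 5 genes. Some had several starts, and no window was found for RELB. They were searched on both strands for the decameric kappaB consensus, which is 3 G, a purine, 2 free positions, 2 pyrimidines and 2 C, and matches were allowed to overlap. The capitals mark these matches.
NFKB1, the first listed start (chr4:102501109-102501408, plus strand): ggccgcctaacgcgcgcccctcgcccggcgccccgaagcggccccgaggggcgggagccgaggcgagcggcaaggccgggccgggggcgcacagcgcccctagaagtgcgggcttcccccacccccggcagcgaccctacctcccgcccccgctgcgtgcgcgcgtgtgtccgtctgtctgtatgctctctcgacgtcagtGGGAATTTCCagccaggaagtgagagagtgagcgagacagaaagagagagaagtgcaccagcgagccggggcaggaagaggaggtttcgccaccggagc
REL (chr2:60881324-60881623, plus strand): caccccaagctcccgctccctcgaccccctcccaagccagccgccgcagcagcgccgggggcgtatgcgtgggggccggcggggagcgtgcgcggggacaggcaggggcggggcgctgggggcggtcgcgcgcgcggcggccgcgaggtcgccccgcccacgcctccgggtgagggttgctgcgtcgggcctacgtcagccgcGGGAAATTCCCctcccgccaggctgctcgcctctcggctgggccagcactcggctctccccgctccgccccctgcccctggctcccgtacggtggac
NFKB2, the second listed start (chr10:102394328-102394627, plus strand): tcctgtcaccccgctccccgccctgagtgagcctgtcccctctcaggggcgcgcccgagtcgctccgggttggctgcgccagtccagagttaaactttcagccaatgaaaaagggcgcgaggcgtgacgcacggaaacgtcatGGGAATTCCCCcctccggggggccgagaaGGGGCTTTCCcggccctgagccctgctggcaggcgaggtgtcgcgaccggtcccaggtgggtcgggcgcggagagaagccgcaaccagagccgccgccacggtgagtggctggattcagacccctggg
NFKB2, the third listed start (chr10:102395455-102395754, plus strand): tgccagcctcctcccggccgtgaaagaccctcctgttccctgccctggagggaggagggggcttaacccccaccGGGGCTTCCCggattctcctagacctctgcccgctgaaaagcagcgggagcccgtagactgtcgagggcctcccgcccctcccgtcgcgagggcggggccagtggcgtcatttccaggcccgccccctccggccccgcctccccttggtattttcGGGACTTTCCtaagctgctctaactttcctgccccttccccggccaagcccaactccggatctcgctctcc
RELA, the second listed start (chr11:65662867-65663166, minus strand): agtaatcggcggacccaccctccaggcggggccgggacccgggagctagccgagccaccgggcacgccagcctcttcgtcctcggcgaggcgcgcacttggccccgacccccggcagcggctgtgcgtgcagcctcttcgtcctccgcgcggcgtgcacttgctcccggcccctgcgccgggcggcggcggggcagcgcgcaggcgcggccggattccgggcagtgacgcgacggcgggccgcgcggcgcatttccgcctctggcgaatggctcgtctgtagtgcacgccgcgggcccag
The NFKB1 match, GGGAATTTCC, lay from 49 to 40 bases before the start. REL held 2 overlapping matches on opposite strands, GGGAAATTCC and, on the minus strand, GGGAATTTCC. The second NFKB2 window held GGGGCTTTCC and a pair of overlapping matches further upstream, and the third held 2 matches, among them GGGACTTTCC from 21 to 12 bases before the third listed start. Neither RELA window and neither the second NFKB1 nor the first NFKB2 window held one. Of 35116 windows of this length in the table, 11.27% held at least 1 match. The letters GGGCGG, the core of the GC box, were in 44.95% of all windows and in 7 of the 8 windows of these genes, and TATAAA was in 11.53% of all and in 0 of the 8. The windows printed above had 67.7% to 79.0% G and C against a median of 58.7%. A match is a stretch of letters and not a measured binding site.

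Total counts ran from 5835226 to 9281176 per library, the lowest being TNF library 1, and the biological coefficient of variation was 3.62%. Control library 1 and TNF library 1 each stood apart from their groups. The chi-square per degree of freedom over gene counts was 2.77 and 2.92 between control library 1 and the other control libraries, against 1.38 between those. It was 2.88 and 2.58 for TNF library 1, against 1.25, and 1.23 to 1.78 within the other groups. Across 12223 genes the deviation of TNF library 1 from the other TNF libraries correlated with transcript GC content at Spearman's rho = -0.53. For TNF libraries 2 and 3, each set against a mean that includes library 1, rho was 0.37 and 0.33, against -0.17 to 0.24 in the control, -0.11 to 0.06 in the Senexin B and -0.05 to 0.05 in the TNF plus Senexin B libraries (across genes, which are not independent). Of 6 epithelial markers, 5 were expressed (EPCAM, CDH1, KRT8, KRT18 and KRT19) and KRT20 had 2 to 9 counts. Their summed level was 4236 to 4530 CPM in control, 4642 to 4728 with Senexin B, 3835 to 4265 with TNF and 4430 to 4473 with both. The 6 blood cell markers had at most 3 counts in a library, with CD68 and SPI1 at 0. Of 6 fibroblast markers, COL1A1 had 43 to 90 counts and the other 5 at most 3, with DCN and LUM at 0.

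TNF raised all 5 subunit genes, from 1.25-fold for RELA to 8.06-fold for RELB without Senexin B, and from 1.24-fold for RELA to 7.96-fold for RELB with it. Levels below are CPM, counts scaled to a common library size with TMM (trimmed mean of M values) factors, a scale that compares libraries but not genes. In these bulk libraries a change in the number of responding cells and a change in RNA per cell cannot be told apart. Calls come from quasi-likelihood F-tests in edgeR, adjusted by Benjamini and Hochberg's method over all 13084 genes, at an adjusted p under 0.05. TNF against control called 10.0% of all genes, 5.81% as higher and 4.20% as lower, and TNF plus Senexin B against Senexin B called 5.95%, 4.27% as higher and 1.68% as lower. All 5 members were called as higher in both.

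RELA encodes p65, the subunit of most canonical dimers that activates transcription. RELA stood at 77.5, 89.5 and 87.4 CPM in the control libraries 1, 2 and 3, at 84.4, 83.3 and 89.3 with Senexin B, at 96.8, 113 and 109 with TNF, and at 105.7, 104.8 and 107.9 with TNF plus Senexin B. Each library with TNF lay above each library without it, the nearest being 96.8 in TNF library 1. The log2 fold change with TNF was 0.33 ± 0.06 (SE, 95% interval 1.16-fold to 1.36-fold, adjusted p = 2.89e-05), and 0.31 ± 0.06 under Senexin B (adjusted p = 5.30e-05). RELA ranked 756 of 13084 by fitted change with TNF, so its rise was small beside those of the other members.

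NFKB1 encodes p105 and p50. NFKB1 stood at 73.3, 77.4 and 77.1 CPM in control, at 68.0, 69.7 and 83.4 with Senexin B, at 189, 184 and 185 with TNF, and at 173, 167 and 173 with both agents. The libraries with TNF were all well above those without, and Senexin B library 3 was the highest of the 6 without TNF. The log2 fold change with TNF was 1.29 ± 0.06 (2.26-fold to 2.64-fold, adjusted p = 1.55e-27), and 1.21 ± 0.06 under Senexin B.

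REL encodes c-Rel, best known from lymphocytes, and was the least abundant member per transcript length. REL had 70 to 102 counts in the 6 libraries without TNF and 164 to 236 in those with it. Its levels were 13.1, 10.7 and 9.61 CPM in control, 8.20, 10.7 and 10.9 with Senexin B, 28.4, 28.9 and 28.1 with TNF, and 26.0, 24.3 and 24.8 with both. The groups with and without TNF did not overlap. The log2 fold change was 1.37 ± 0.11 (2.21-fold to 3.03-fold, adjusted p = 2.44e-15), and 1.33 ± 0.12 under Senexin B. In GENCODE 29 a noncoding RNA gene on the same strand, AC010733.2, covers 43.3% of the annotated exon bases of REL. That symbol is not among the genes counted, and the annotation used for counting is not given. Whether all reads from that stretch were counted for REL is therefore not known.

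NFKB2 encodes p100 and p52 and had the highest level per transcript length with TNF. NFKB2 stood at 74.2, 75.9 and 73.7 CPM in control and at 76.6, 74.5 and 72.0 with Senexin B. With TNF it stood at 302, 342 and 312, and with both agents at 299, 294 and 303. The 6 libraries without TNF lay within 5 CPM of each other, while TNF library 2 was the highest of its group. The log2 fold change with TNF was 2.10 ± 0.05 (3.99-fold to 4.59-fold, adjusted p = 2.23e-40), the fifth smallest p of all genes, and 2.01 ± 0.05 under Senexin B.

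RELB encodes the partner of p52 in the non-canonical dimer and had the largest fold of the 5. RELB stood at 11.7, 8.43 and 11.2 CPM in control, at 9.84, 9.92 and 9.85 with Senexin B, at 76.3, 93.7 and 80.6 with TNF, and at 80.4, 75.7 and 79.9 with both. No library without TNF came near those with it. The log2 fold change with TNF was 3.01 ± 0.11 (6.94-fold to 9.37-fold, adjusted p = 2.45e-34), the 17th largest fitted rise of all genes, and 2.99 ± 0.11 under Senexin B.

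**Figure D1:**
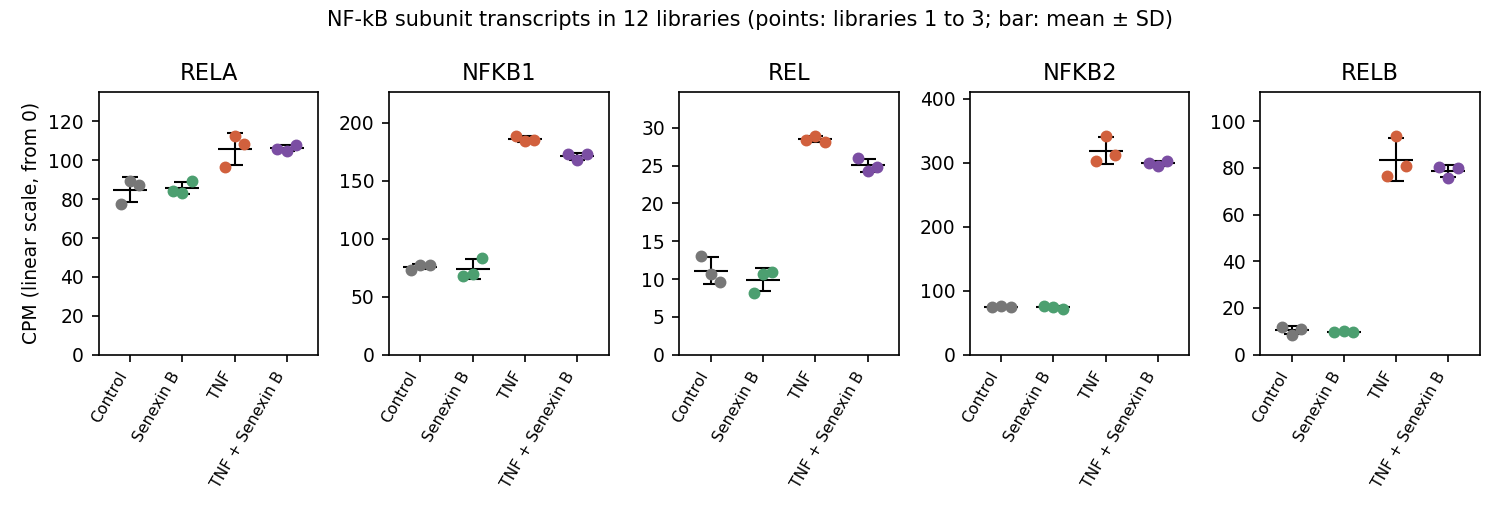
CPM of each subunit gene in the 12 libraries (points) with the mean ± SD of each group of 3 (bars), each panel on its own linear axis from 0. In every panel the 6 libraries with TNF lie above the 6 without it, and RELA shows the smallest step in proportion to its control level.

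For all 5 genes the 6 libraries with TNF lay above the 6 without, a pattern held by 3.71% of all genes tested. Groups did not overlap in TNF against control for 24.3% of all genes (12.6% with TNF higher, 11.8% lower), and in the same contrast under Senexin B for 21.9% (11.5% higher, 10.4% lower). The 95% intervals of the TNF effect separated RELA from NFKB1 and REL, these from NFKB2, and NFKB2 from RELB, while those of NFKB1 and REL overlapped. The GC content of the longest transcript was 38.7% for REL, 50.1% for NFKB1, 57.1% for RELA, 62.4% for NFKB2 and 65.4% for RELB. TNF library 1 deviated from TNF libraries 2 and 3 by -0.0039 (REL), 0.03 (NFKB1), -0.19 (RELA), -0.11 (NFKB2) and -0.19 (RELB) on the scale of log2(CPM + 1). With offsets that remove each library's GC trend, the log2 fold changes with TNF were 1.30 for REL, 1.30 for NFKB1, 0.39 for RELA, 2.22 for NFKB2 and 3.17 for RELB, and all 5 calls held.

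Levels of different genes can be compared only per length, here as CPM per kb of union exon length in GENCODE 29. NFKB2 (16.6 ± 0.26, mean ± SD, n = 3) and RELA (15.5 ± 1.17) led in control, with a difference smaller than the spread of RELA. NFKB1 followed at 12.1 ± 0.36, then RELB at 3.44 ± 0.58 and REL at 0.844 ± 0.134. With TNF the order was NFKB2 (71.1 ± 4.65), NFKB1 (29.7 ± 0.40), RELB (27.5 ± 2.99), RELA (19.4 ± 1.51) and REL (2.16 ± 0.03). NFKB1 and RELB did not differ there beyond their spread, but with the length of the longest transcript they did (45.5 ± 0.62 and 36.4 ± 3.95 per kb). With the length of the longest transcript in place of union exons, RELA led in control at 26.6 ± 2.01 per kb ahead of NFKB2 at 21.8 ± 0.34, so the order of these depends on the length used. Among 12223 tested genes with a known length, RELB went from the 36.3 to the 85.9 percentile of per-length level with TNF, NFKB2 from 76.6 to 95.5, NFKB1 from 68.6 to 86.9, RELA from 74.9 to 79.5 and REL from 12.3 to 27.1.

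The summed per-length level of the 5 transcripts was 48.6 ± 1.10 CPM per kb in control, 48.0 ± 1.52 with Senexin B, 150 ± 8.61 with TNF and 141 ± 2.56 with both. NFKB2 made up 34.3% ± 0.79 of this sum in control and 47.4% ± 0.41 with TNF, and RELB 7.09% ± 1.31 and 18.3% ± 0.92. RELA made up 31.9% ± 1.72 in control and 12.9% ± 0.51 with TNF, although its own level was higher. The share of NFKB1 was 25.0% ± 0.19 and 19.9% ± 1.37, and that of REL 1.74% ± 0.32 and 1.45% ± 0.07. Within single libraries the per-length ratio of NFKB2 to RELA was 1.08 ± 0.079 in control and 3.67 ± 0.152 with TNF (mean ± SD, n = 3). That of RELB to RELA was 0.224 ± 0.0517 in control and 1.42 ± 0.0809 with TNF. With the length of the longest transcript, the levels with TNF lay within their spread, at 36.4 ± 3.95 per kb for RELB and 33.3 ± 2.59 for RELA. In control they were then 4.55 ± 0.77 and 26.6 ± 2.01, so RELB rose relative to RELA by either length. The 2 precursor genes also moved apart, with NFKB2 to NFKB1 at 1.33 to 1.41 in control and 2.23 to 2.60 with TNF. With both agents the shares were 47.2% ± 0.24 for NFKB2, 18.4% ± 0.30 for RELB, 19.3% ± 0.06 for NFKB1, 13.8% ± 0.13 for RELA and 1.35% ± 0.04 for REL. Set against TNF alone, the shares of NFKB2, RELB and NFKB1 lay within 1 SD of each other, while that of RELA was higher and that of REL lower by more than 1 SD. These are RNA levels, and they say nothing of how much p100 or p105 was processed.

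**Figure D2:**
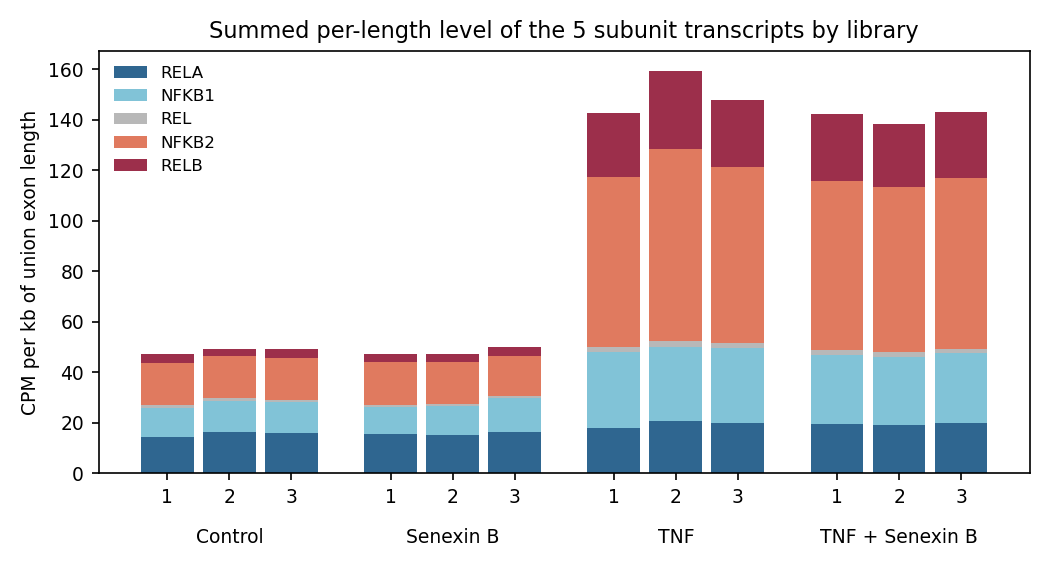
Stacked bars of CPM per kb of union exon length for the 5 subunit transcripts in each of the 12 libraries (replicates 1 to 3 of each group). The summed level is 47.1 to 49.8 in the 6 libraries without TNF and 138 to 159 in the 6 with it, and NFKB2 and RELB take the larger part of the added height.

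Senexin B alone changed no subunit gene by the test. Of the 5 members, 0 were called by edgeR, by DESeq2 or by limma-voom, and 0 had an unadjusted p under 0.05, where 3.04% of all genes were called by edgeR (1.53% higher, 1.51% lower). The groups overlapped for all 5, while 20.0% of all genes had groups that did not (9.96% with Senexin B higher, 10.0% lower). The fitted log2 changes were 0.01 ± 0.06 for RELA, -0.04 ± 0.06 for NFKB1, -0.15 ± 0.13 for REL, -0.01 ± 0.06 for NFKB2 and -0.08 ± 0.14 for RELB. Their 95% intervals ran from -6.98% to 9.37% for RELA, from -10.6% to 5.65% for NFKB1 and from -7.81% to 7.66% for NFKB2. For the low genes they were wider, from -25.0% to 8.59% for REL and from -21.8% to 14.9% for RELB, so that a change within those bounds was not resolved for these. Their coefficients of variation among control libraries were 15.9% and 16.9%, where counting alone gives 10.5% and 10.8%.

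In TNF-treated cells Senexin B gave values at or slightly below those with TNF alone, and no member was called. By edgeR 5.45% of all genes were called in this comparison (2.90% higher, 2.55% lower) and 0 of the 5 members, with an unadjusted p under 0.05 for NFKB1 (0.0203) and NFKB2 (0.0308). DESeq2 and limma-voom also called 0. NFKB1 averaged 171 ± 3.05 CPM with both agents against 186 ± 2.52 with TNF (log2 fold change -0.12 ± 0.05, 95% interval -14.2% to -1.33%, adjusted p = 0.162). NFKB2 averaged 299 ± 4.54 against 319 ± 20.9 CPM (-0.10 ± 0.04, -11.8% to -0.629%, adjusted p = 0.203). REL averaged 25.1 ± 0.878 against 28.5 ± 0.428 CPM (-0.19 ± 0.09, -22.8% to 0.0713%, adjusted p = 0.267). RELB was at -0.09 ± 0.07 (-14.5% to 2.54%, adjusted p = 0.460) and RELA at -0.01 ± 0.06 (-7.84% to 7.70%, adjusted p = 0.977). The libraries of NFKB1 and REL did not overlap between these groups, as for 22.6% of all genes (11.3% in each direction), while those of the other 3 did.

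The calls changed with GC-corrected offsets. Across genes, the log2 change of TNF plus Senexin B against TNF correlated with GC content at Spearman's rho = 0.37. For the other comparisons rho was -0.41 (TNF against control), -0.18 (TNF under Senexin B), 0.09 (Senexin B alone) and 0.29 (interaction). With GC-corrected offsets, which are fitted to remove such a trend, it was -0.0034 for TNF plus Senexin B against TNF. With those offsets 4.65% of all genes were called, and 3 members were called as lower with the inhibitor. NFKB2 was then at -0.19 ± 0.04 (-16.4% to -7.68%, adjusted p = 0.000102), RELB at -0.21 ± 0.06 (-20.0% to -6.30%, adjusted p = 0.0161) and NFKB1 at -0.14 ± 0.04 (-14.2% to -3.43%, adjusted p = 0.0477). REL (-0.11 ± 0.09) and RELA (-0.06 ± 0.05) were not called. Without TNF library 1 NFKB2 was at -0.13 (adjusted p = 0.0582), RELB at -0.15 (adjusted p = 0.249) and NFKB1 at -0.11 (adjusted p = 0.272). Without TNF library 2, the highest of its group for NFKB2 and RELB, NFKB2 was at -0.04 (adjusted p = 0.707), RELB at 0.00069 (adjusted p = 0.997) and NFKB1 at -0.13 (adjusted p = 0.181). Without control library 1 and TNF library 1 together, NFKB2 was called at -0.13 (adjusted p = 0.0264). The offsets would also take away a GC trend that came from the treatment.

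**Figure D3:**
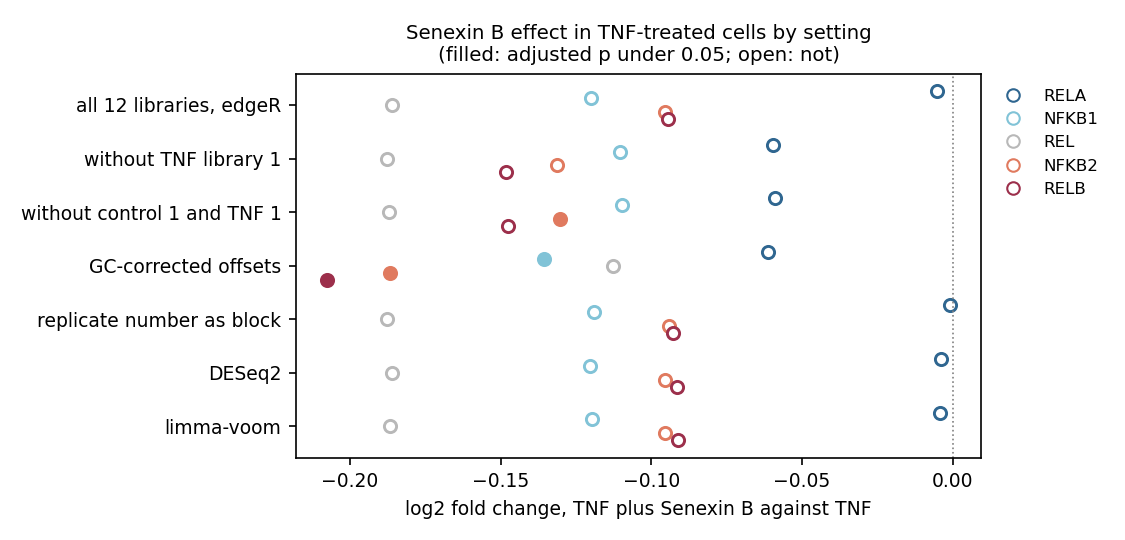
Log2 fold change of each subunit gene for TNF plus Senexin B against TNF under 7 settings (rows), filled where the adjusted p was under 0.05. Of the 35 points, 4 are filled: NFKB2, RELB and NFKB1 with GC-corrected offsets, and NFKB2 without control library 1 and TNF library 1.

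The interaction asks directly whether the TNF effect on a subunit gene differed with the inhibitor. None of the 5 was called and none had an unadjusted p under 0.05 by edgeR, where 0.0459% of all genes, 6 in number, were called (0.0229% in each direction). DESeq2 and limma-voom called 0 of the 5 as well. The ratio of the TNF fold with Senexin B to that without was 0.988 for RELA (95% interval 0.883 to 1.11), 0.947 for NFKB1 (0.849 to 1.06) and 0.974 for REL (0.777 to 1.22). It was 0.940 for NFKB2 (0.852 to 1.04) and 0.988 for RELB (0.798 to 1.22). With GC-corrected offsets the interaction was not called for any of the 5 either, and 1 had an unadjusted p under 0.05, NFKB2 at -0.16 ± 0.06 (adjusted p = 0.663).

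**Figure D4:**
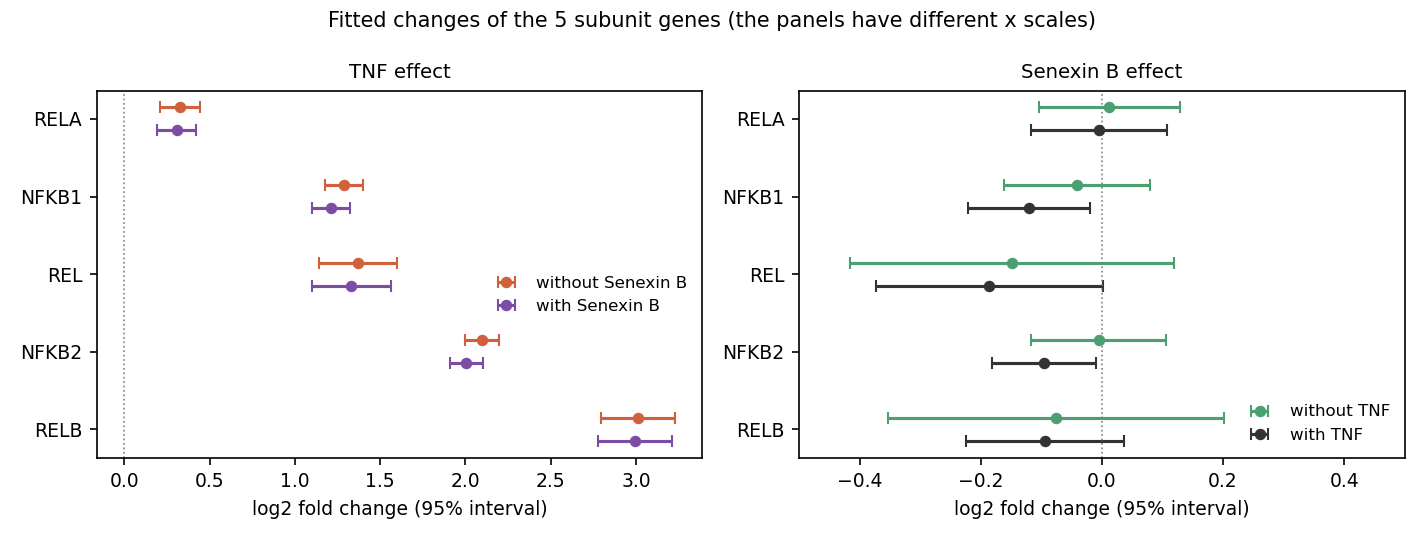
Fitted log2 fold changes (points) with 95% intervals (bars) for the 5 subunit genes; the left panel shows the TNF effect without and with Senexin B, the right panel the Senexin B effect without and with TNF, on different x scales; each group serves in 2 of the 4 comparisons. The paired TNF effects lie side by side from RELA (0.33 and 0.31) to RELB (3.01 and 2.99), and the Senexin B effects lie between -0.19 and 0.01.

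By a measure of likeness over the 12 libraries (the root mean square difference of centred log2(CPM + 1), among 10519 genes of at least 5 CPM), the genes nearest to NFKB1 were PLAUR (0.101), SLC16A9 (0.102) and DDX58 (0.114). For REL the nearest was NFKB1 itself (0.129), then DDX58 (0.147) and PLAUR. Nearest to NFKB2 were ANKRD33B, SDC4 and HIVEP2 (0.137 to 0.144), and nearest to RELB were ICAM1, PLAU and TNFAIP2 (0.190 to 0.229). Nearest to RELA were ITGA5, MICB and HLA-B (0.0523 to 0.0620). HLA-B and MICB have close relatives with which reads may be shared. Pearson's r ran from 0.940 to 0.996 over these pairs, which share the step between libraries with and without TNF.

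Other genes of the pathway were read from lists of its parts, in the same fit. Their counts with TNF stand beside 5.81% of all genes called as higher and 4.20% as lower. Of 6 IkB family genes, 5 rose with TNF and 0 fell (median log2 change 1.77, against -0.0052 over all genes tested). They included NFKBIA, which encodes IkB-alpha (3.54 ± 0.06), and BCL3, a nuclear partner of p50 and p52 (2.04 ± 0.12). Of 3 IKK complex genes, 2 rose (median 0.16), with the catalytic subunit gene IKBKB at 0.44 ± 0.10 and CHUK, which encodes IKK-alpha, at 0.16 ± 0.05. Of 9 genes of the non-canonical arm, 4 rose and 0 fell (median 0.20), among them BIRC2 (1.58 ± 0.06) and TRAF3 (0.92 ± 0.05), whose products keep NIK low. MAP3K14, which encodes NIK, was at 0.13 ± 0.09 and was not called. Of 11 tested genes of the TNF receptor complex, 0 rose and 1 fell (median -0.07), the receptor gene TNFRSF1A at -0.18 ± 0.06, while TNFRSF1B had at most 3 counts. Of 7 processing genes and p105 partners, 1 rose (median 0.02), MAP3K8, the kinase gene TPL2, at 1.86 ± 0.26. Of 6 brakes, 4 rose and 0 fell (median 0.70), with TNFAIP3 (A20) at 4.38 ± 0.16 and TNIP1 at 0.85 ± 0.07. Of 5 NFAT genes, which share the Rel homology fold, 1 rose and 1 fell (median -0.03), NFATC2 at 0.61 ± 0.16 and NFATC3 at -0.29 ± 0.08. Of 7 Mediator kinase module genes, 1 rose (median 0.11), MED13 at 0.17 ± 0.04. The calls of CHUK, TNFRSF1A, NFATC2, NFATC3 and MED13 were lost in fits without single libraries. CHUK lost its call without TNF library 1 (adjusted p = 0.295), control library 1 (0.111) or control library 3 (0.112). TNFRSF1A lost it without control library 2 (0.0651) or 3 (0.281) or TNF library 1 (0.0993) or 3 (0.0611). NFATC2 lost it without control library 2 (0.114) or TNF library 3 (0.0666), NFATC3 without TNF library 3 (0.0732), and MED13 without control library 2 (0.0513) or 3 (0.0592). With GC-corrected offsets CHUK was at 0.078 (adjusted p = 0.317), TNFRSF1A at -0.12 (0.199) and MED13 at 0.096 (0.103). DESeq2 and the fit of only the groups compared also left CHUK (0.0748 and 0.107) and TNFRSF1A (0.0906 and 0.0899) uncalled, as did the fit without a filter for TNFRSF1A (0.0643). Without control library 1 and TNF library 1 together CHUK (0.496) and NFATC3 (0.0701) were not called. With TNF under Senexin B, beside 4.27% of all genes called as higher and 1.68% as lower, 0 of 3 IKK genes were called. IKBKB was at 0.15 ± 0.09 (adjusted p = 0.485) and CHUK at 0.09 ± 0.05 (0.419). IKBKB averaged 25.5 ± 2.70 CPM with TNF and 25.9 ± 1.81 with both agents. Without TNF it averaged 19.0 ± 0.865 CPM in control and 23.4 ± 1.42 with Senexin B. NFATC3 was at -0.11 ± 0.08 (0.576), also uncalled. The IkB family had 5 of 6 higher, the non-canonical arm 3 of 9, the brakes 3 of 6 and the NFAT genes 1 of 5. Processing genes and the Mediator kinase module had 2 of 7 each, and the receptor complex 1 of 11 lower.

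With Senexin B added to TNF, some of these partners were called, beside 2.90% of all genes called as higher and 2.55% as lower. The subunit genes were not called in this fit, while NFKB1, NFKB2 and RELB were with GC-corrected offsets. Of the 6 IkB family genes 2 fell and 0 rose (median -0.17, against 0.00077 over all genes), NFKBIA from 294.5 ± 4.63 to 255 ± 4.32 CPM and NFKBIZ, the co-activator gene of IkB-zeta, from 13.2 ± 1.51 to 7.95 ± 0.944 CPM. Of 9 genes of the non-canonical arm, 2 fell and 2 rose (median -0.01), with the ubiquitin ligase gene BIRC3 at -0.60 ± 0.09, the receptor gene TNFRSF12A at -0.24 ± 0.05 and BIRC2 at 0.18 ± 0.05. BIRC3 averaged 333 ± 38.7 CPM with TNF and 219 ± 10.4 with both agents. Without TNF it averaged 3.21 ± 1.31 CPM in control and 2.55 ± 0.909 with Senexin B. Of the 6 brakes 2 fell (median -0.16), the deubiquitinase gene CYLD at -0.41 ± 0.09 and TNFAIP3 at -0.26 ± 0.07. In the TNF receptor complex 1 of 11 rose (median -0.0024), RBCK1 at 0.22 ± 0.07, and in the Mediator kinase module 1 of 7 (median -0.03), MED13L at 0.18 ± 0.05. Of the IKK complex, processing and NFAT genes 0 were called. The calls of TNFAIP3, BIRC2, RBCK1 and MED13L were lost in fits without single libraries. TNFAIP3 lost it without TNF library 2 (adjusted p = 0.115) or TNF plus Senexin B library 3 (0.0754). BIRC2 lost it without TNF library 2 (0.0955) or 3 (0.127) or TNF plus Senexin B library 1 (0.102) or 2 (0.152). RBCK1 lost it without TNF library 1 (0.186) or 3 (0.0854) or TNF plus Senexin B library 1 (0.0808), 2 (0.176) or 3 (0.0583). MED13L lost it without TNF library 1 (0.286), 2 (0.0668) or 3 (0.0936) or TNF plus Senexin B library 1 (0.221) or 2 (0.0689). With GC-corrected offsets RBCK1 was at 0.12 (adjusted p = 0.352) and MED13L at 0.20 (0.0936), both uncalled. DESeq2 did not call BIRC2 (0.0593), RBCK1 (0.0779) or MED13L (0.0511), and the fit of only the groups compared did not call BIRC2 (0.0560) or RBCK1 (0.0725). RBCK1 was also uncalled without control library 1 and TNF library 1 together (0.153). Against control, Senexin B alone called 1.53% of all genes as higher and 1.51% as lower. TNFRSF12A was among the latter at -0.25 ± 0.05 (adjusted p = 0.0011), and so was MED13 at -0.16 ± 0.04 (0.0286). No other gene of these lists was called there, and the IkB family median was -0.17. In the interaction 0 genes of these lists were called. Whether the partners differed from the subunit genes in their response to the inhibitor was not tested.

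The positions of the 5 genes in GENCODE 29 (GRCh38) are as follows. RELA lies on the minus strand of chromosome 11 from 65653596 to 65663094, and NFKB1 on the plus strand of chromosome 4 from 102501329 to 102617302. REL lies on chromosome 2 from 60881521 to 60931610, NFKB2 on chromosome 10 from 102394110 to 102402529 and RELB on chromosome 19 from 45001430 to 45038198, all 3 on the plus strand. All 5 are protein-coding genes, and the counts are sums over their exons. RELA shares 9 exon bases with a noncoding RNA gene on the other strand, AP001362.2, and no such overlap in exons was found for NFKB1, NFKB2 or RELB.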

How the data were processed

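Per the labels' protocols, total RNA of HCT116 cells was made into libraries with a TruSeq RNA kit. The deposited values were raw read counts per gene symbol, whole numbers that had not been normalized. The submitters' processing notes list STAR 2.4, SAMtools 1.2 and Subread 1.4.6 with its counter featureCounts, and GRCh38 (hg38) as build. The annotation, strand setting and treatment of reads mapping to several places are not given in the sources used here. Columns were matched by the sample number in each description.

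Tests used edgeR 4.0.16 under R 4.3.3. Libraries were scaled by TMM, genes filtered with filterByExpr on the groups, and the model had 1 coefficient per group over all 12 libraries, with robust quasi-likelihood F-tests. Standard errors and 95% intervals of log2 fold changes are Wald values scaled by the posterior quasi-dispersion. The edgeR steps were also run on simulated counts with known fold changes and the same spread for every gene. Those counts had no library set apart and no GC trend, so they cannot show how the fit handles either. GC content and length came from GENCODE 29 by symbol, with a value for 12223 of the 13084 genes tested (93.4%). Alternatives were DESeq2 1.42.0, RLE factors, no filter, a filter of 10 CPM in 3 libraries, the replicate block, fits of only the groups compared, GC-corrected offsets, each library left out, and limma-voom (limma 3.58.1), which was added after seeing the data.

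The members and the pathway lists were chosen with earlier results of these data known. From each list, up to 2 called genes with the smallest adjusted p in TNF against control and in TNF plus Senexin B against TNF were named. MAP3K14 and TNFRSF1B were named after their values were seen.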

Additional observations from a re-analysis of the deposited data

How the results depend on the processing

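The 10 calls of the TNF effect on the 5 members, with and without Senexin B, held in each of 22 alternatives. For RELA, the smallest, the log2 change ranged from 0.27 to 0.39 and the largest adjusted p was 0.00169. The interaction stayed uncalled for all 5 in each of 21 alternatives. Counting error is largest for REL and RELB, with 70 to 102 counts per library without TNF.

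The labels give the groups the same replicate numbers. Deviations from the group means correlated above 0.1 in 3 of 18 pairs with the same number (-0.06 to 0.21) and in 1 of 36 with other numbers, and pairing was taken to need every same-number pair above 0.1, which these were not. Of 12 libraries, 8 correlated best with their own number, but these correlations share libraries and are not independent. Whether the number marks a shared effect was not tested, and it is not part of the design. The replicate block gave 1470, 827, 479, 871 and 6 calls over all genes for TNF, TNF under Senexin B, Senexin B, Senexin B with TNF and the interaction, against 1309, 779, 398, 713 and 6 without it, and it changed no call of a member.

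For TNF plus Senexin B against TNF, members gained a call with GC-corrected offsets (NFKB1 -0.14, NFKB2 -0.19, RELB -0.21), with GC-corrected offsets and the replicate block (NFKB1 -0.13, NFKB2 -0.19, RELB -0.21) and, for NFKB2, without control library 1 and TNF library 1 (-0.13). Uncalled values near 0 changed sign, and the cause was not tested. With GC-corrected offsets, and with the block added, RELA was at -0.0058 and -0.0039 for Senexin B alone and the REL interaction at 0.0124 and 0.0126. Without the filter NFKB2 was at 0.0066 for Senexin B alone and RELA at 0.00083 with TNF. Without control library 1 and TNF library 1, RELA was at -0.04 and RELB at 0.0042 for Senexin B alone. Leaving out 1 library in turn gave, for Senexin B alone, -0.14 to 0.013 (NFKB1), -0.029 to 0.018 (NFKB2), -0.25 to -0.027 (REL, nearest to 0 without control 1), -0.044 to 0.052 (RELA) and -0.21 to 0.0047 (RELB). With TNF it gave -0.13 to -0.040 (NFKB2, nearest to 0 without TNF 2), -0.060 to 0.041 (RELA) and -0.15 to 0.00069 (RELB), and for the interaction -0.13 to 0.025 (NFKB1), -0.13 to -0.033 (NFKB2, nearest to 0 without TNF 2), -0.16 to 0.061 (REL), -0.072 to 0.038 (RELA) and -0.10 to 0.11 (RELB).

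Counts of calls over all genes moved more than 1.5 times in some settings. DESeq2 called 850 genes in TNF against control and 475 for Senexin B within TNF. GC-corrected offsets with the block called 717 for Senexin B alone, and no filter called 10 interactions. Leaving out 1 library gave 236 to 589 (Senexin B alone, 236 to 261 without a Senexin B library), 451 to 815 (Senexin B with TNF, 451 to 468 without TNF 1 or a library with both agents) and 2 to 9 (interaction, at most 3 without control 1 or 2, Senexin B 2 or 3, or TNF plus Senexin B 1 or 3). With the length of the longest transcript, the share of RELA was 36.7% in control and 15.8% with TNF, that of NFKB2 30.1% and 44.2%, and that of RELB 6.28% and 17.2%, so the directions held.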
